A study of Mus musculus with 2 samples.

Results

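TRBJ2 joins are TCRβ rearrangements that used a J gene of the second of the TRBJ clusters in the mouse TCRβ locus. They were taken as the clonotypes whose first-listed J gene was TRBJ2-1, TRBJ2-2, TRBJ2-3, TRBJ2-4, TRBJ2-5 or TRBJ2-7. The thymus library held 1061 such clonotypes of 1640 TCRβ clonotypes, and the spleen library held 1379 of 2241. Among the clonotypes of both chains these were 1061 of 7732 and 1379 of 11826. No TRBJ2 clonotype had tied J genes, and none listed TRBJ2-6, which is annotated as a J pseudogene.

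The cells were iT cells, T cells that developed in mice from embryonic stem cells (C57BL/6 background, CD45.2) carrying a doxycycline-inducible Runx1-p2a-Hoxa9 cassette in the Rosa26 locus. Induced hematopoietic progenitors made from these cells were transplanted into irradiated B-NDG mice, an immunodeficient CD45.1 strain, at 8 to 10 weeks of age, and 15000 iT cells per library were sorted at week 6 from the thymus or the spleen. In the paper's methods thymic cells were gated as CD45.2+ CD4SP or CD8SP cells lacking the listed lineage markers and TCRγδ. Splenic cells were gated there as CD45.2+ CD4SP or CD8SP cells that were CD62L+CD44-. The paper's results describe the sorted cells of both organs as naive, that is CD62L+CD44-, so the thymic gate is not settled. Each tissue had 1 library, both came from the same engineered stem cell type, and wild-type T cells were not analysed here. The number of mice behind each library was not given in the sources used here.

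A TCRβ chain is built in the thymus when a D gene is first joined to a J gene and a V gene is then joined to that D-J joint. Before the ends are sealed, bases can be cut from each gene, short palindromic (P) bases can be left by the opened hairpin, and terminal transferase can insert bases that no gene encodes. TRBD1 lies upstream of both J clusters and can reach either of them, whereas TRBD2 lies between the clusters and joins TRBJ2 genes by deletion. The joined stretch, CDR3, runs from the last cysteine of V to the phenylalanine of J and is the part of the chain that mainly touches the peptide.

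The germline J genes are shown because all trimming below was counted from their first base. Each line gives the coding strand from the GENCODE transcripts of GRCm38, with the bases that fall within CDR3 in capitals and the rest of J in lower case.
TRBJ2-1: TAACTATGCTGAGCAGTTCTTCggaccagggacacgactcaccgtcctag
TRBJ2-2: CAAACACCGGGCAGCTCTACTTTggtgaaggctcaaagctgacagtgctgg
TRBJ2-3: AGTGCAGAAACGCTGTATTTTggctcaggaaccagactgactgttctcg
TRBJ2-4: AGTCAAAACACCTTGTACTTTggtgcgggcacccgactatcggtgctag
TRBJ2-5: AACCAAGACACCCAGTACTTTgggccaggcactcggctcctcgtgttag
TRBJ2-7: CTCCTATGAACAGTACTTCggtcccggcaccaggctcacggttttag
The genes lie on the plus strand, TRBJ2-1 at chr6:41542754-41542803, TRBJ2-2 at chr6:41542957-41543007, TRBJ2-3 at chr6:41543223-41543271, TRBJ2-4 at chr6:41543362-41543410, TRBJ2-5 at chr6:41543453-41543501 and TRBJ2-7 at chr6:41543810-41543856. All are annotated as J genes, and the whole cluster spans 1103 bases. Untrimmed, TRBJ2-2 brings 23 bases into CDR3, TRBJ2-1 brings 22, TRBJ2-3, TRBJ2-4 and TRBJ2-5 bring 21 each, and TRBJ2-7 brings 19.

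The D genes are shown because their letters recur in the D-J joints described further on, with all bases in capitals.
TRBD1: GGGACAGGGGGC
TRBD2: GGGACTGGGGGGGC
TRBD1 lies at chr6:41533201-41533212, upstream of the TRBJ1 genes, and TRBD2 at chr6:41542163-41542176, with its last base 577 bases before TRBJ2-1.

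The first question was how the 6 genes shared the joins. The thymus library held 1782199 TCRβ reads and the spleen library 2765086, and a count of 3 reads corresponds to 0.000168% and 0.000108% of them. Intervals given here are Wilson 95% intervals over clonotypes or reads, or Newcombe intervals for differences. They cover counting error only, since no collapsing of reads by molecular identifiers is described, and with 1 library per tissue the tissue, the sorting gate and the library cannot be told apart.

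By clonotypes TRBJ2-7, the last gene of the cluster, was used most and TRBJ2-2 least in both libraries. TRBJ2-7 held 15.1% of TCRβ clonotypes in thymus (247 clonotypes, 13.4% to 16.9%) and 14.9% in spleen (335, 13.5% to 16.5%). TRBJ2-2 held 3.90% (64, 3.07% to 4.95%) and 2.63% (59, 2.05% to 3.38%).

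TRBJ2-5 was second in the thymus with 14.3% (234, 12.7% to 16.04%), whereas in the spleen it held 11.96% (268, 10.7% to 13.4%) and came after TRBJ2-3. TRBJ2-1, the gene nearest to TRBD2, held 13.2% (216, 11.6% to 14.9%) and 10.6% (238, 9.41% to 11.96%). TRBJ2-4 held 9.57% (157, 8.24% to 11.1%) and 9.10% (204, 7.98% to 10.4%). In the thymus the intervals of TRBJ2-1, TRBJ2-5 and TRBJ2-7 overlapped, so the order of these 3 genes was not resolved there. In the spleen the intervals of TRBJ2-1, TRBJ2-3 and TRBJ2-5 overlapped, so their order was not resolved either. Without the recurrent stretch described further on, the spleen held 267 TRBJ2-5 clonotypes, 234 of TRBJ2-1 and 219 of TRBJ2-3.

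By clonotypes TRBJ2-3 had a larger share in the spleen than in the thymus, and over distinct D-J joints this difference was not resolved. It held 8.72% of thymus clonotypes (143, 7.45% to 10.2%) and 12.3% of spleen clonotypes (275, 10.98% to 13.7%), a thymus minus spleen difference of -3.55 percentage points (-5.46 to -1.60). The difference for TRBJ2-1 was 2.55 points (0.498 to 4.66), for TRBJ2-5 2.31 points (0.170 to 4.50) and for TRBJ2-2 1.27 points (0.149 to 2.47). Those of TRBJ2-4 (-1.36 to 2.36) and TRBJ2-7 (-2.14 to 2.41) had intervals that included 0. A recurrent stretch that no annotated transcript holds, described further on, was held by 40 thymus and 56 spleen TRBJ2-3 clonotypes, and without it the TRBJ2-3 shares were 6.59% and 10.1%.

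The end of the largest TRBJ2-3 clonotype, also described further on, was held by 6 thymus and 68 spleen clonotypes of TRBJ2-3 that lacked the stretch. Without these as well, TRBJ2-3 held 6.23% of thymus and 7.22% of spleen clonotypes, and the interval of the difference included 0 (-2.60 to 0.686 points). That end was picked after its counts were seen, so leaving it out lowers mainly the spleen share by construction. Counted over distinct D-J joints, TRBJ2-3 made up 52 of 406 TRBJ2 joints in the thymus (12.8%) and 70 of 571 in the spleen (12.3%), a difference of 0.549 points (-3.59 to 4.90). On that count none of the 6 genes differed between the libraries beyond the interval of the difference.

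**Figure D1:**
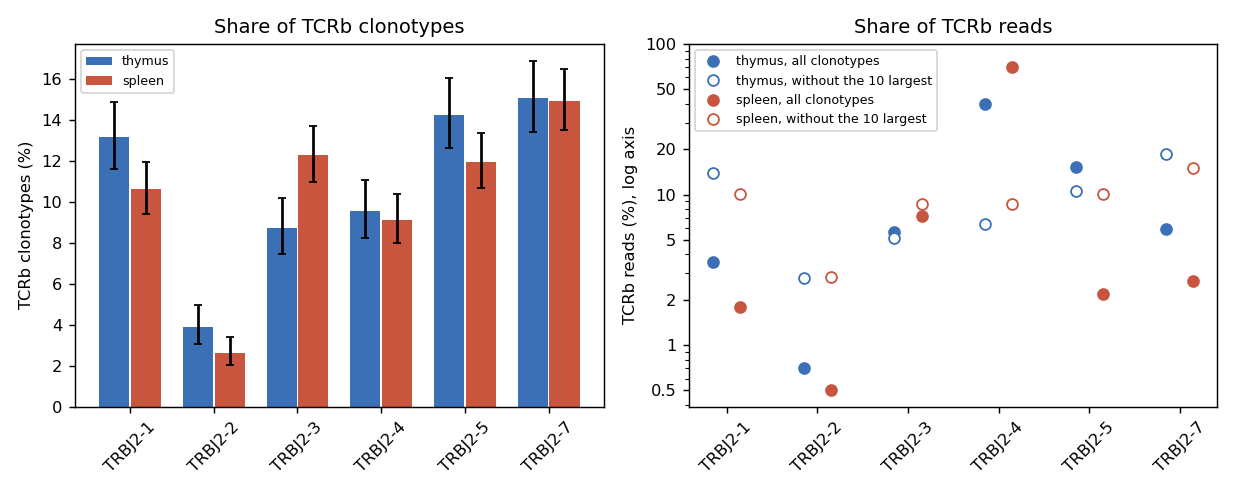
Left, bars give the share of TCRβ clonotypes (%) that used each TRBJ2 gene in the thymus (blue) and spleen (red) library, with Wilson 95% intervals as error bars. Right, points give the share of TCRβ reads (%, log axis) with all clonotypes (filled) and without the 10 largest TCRβ clonotypes of each library (open). TRBJ2-4 stands at 40.1% and 70.0% of reads with all clonotypes and at 6.42% and 8.68% without the 10 largest.

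By reads the picture was set by single clonotypes. TRBJ2 joins held 71.1% of TCRβ reads in thymus and 84.2% in spleen, and 57.6% and 55.3% once the 10 largest TCRβ clonotypes of each library were left out. Of those 10 clonotypes 5 in each library used a TRBJ2 gene, and these 5 carried 56.4% of thymus TCRβ reads and 74.4% of spleen TCRβ reads.

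TRBJ2-4, only the fourth gene by clonotypes in the thymus and the fifth in the spleen, held 40.1% of TCRβ reads in thymus and 70.0% in spleen. Without the 10 largest clonotypes it held 6.42% and 8.68%. TRBJ2-5 held 15.2% and 2.17% with all clonotypes and 10.6% and 10.1% without the 10 largest, so the libraries lay closer together without them. TRBJ2-7 held 5.92% and 2.65%, and 18.7% and 14.96% without the 10 largest, when it led all TRBJ2 genes in both libraries.

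TRBJ2-1 held 3.55% of TCRβ reads in thymus and 1.80% in spleen. TRBJ2-2 held 0.709% and 0.5002%, and TRBJ2-3 held 5.64% and 7.16%. Spread over clonotypes also differed between the genes. As an effective number, which counts how many equally large clonotypes would give the same Shannon entropy of reads, TRBJ2-1 had 72.6 clonotypes in thymus and 127 in spleen, whereas TRBJ2-4 had 2.55 and 1.99. For TRBJ2-5 it was 3.49 and 99.0, and for TRBJ2-7 it was 38.1 and 153.

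The CDR3s that carried these reads are printed because the read-weighted values of these genes rest largely on them, with the bases assigned to J (palindromic bases included) in capitals and the V, D and inserted bases in lower case.
TRBV19-TRBJ2-4: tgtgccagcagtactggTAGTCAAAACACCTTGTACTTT
TRBV13-3-TRBJ2-4: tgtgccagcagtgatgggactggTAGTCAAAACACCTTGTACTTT
TRBV13-1-TRBJ2-4: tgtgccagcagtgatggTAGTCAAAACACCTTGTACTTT
TRBV20-TRBJ2-5: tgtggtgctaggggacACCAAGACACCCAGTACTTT
TRBV5-TRBJ2-3: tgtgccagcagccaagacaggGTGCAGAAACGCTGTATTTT
TRBV13-2-TRBJ2-7: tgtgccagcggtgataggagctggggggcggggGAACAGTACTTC

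The 3 TRBJ2-4 clonotypes kept J whole and each had 1 palindromic base before it. TRBV19-TRBJ2-4 had 475490 reads in thymus and 327215 in spleen, 66.6% and 16.9% of the reads of TRBJ2-4. TRBV13-3-TRBJ2-4 had 209372 and 1552980 reads, 29.3% and 80.3%. TRBV13-1-TRBJ2-4 was of another order, with 734 reads in thymus and 11410 in spleen.

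TRBV20-TRBJ2-5 had 222857 reads in the thymus, 82.3% of the reads of TRBJ2-5, and 10532 in the spleen, 17.6%. TRBV13-2-TRBJ2-7 had 20791 reads in thymus and 3185 in spleen, and had lost 7 bases of J. The TRBJ2-4, TRBJ2-5 and TRBJ2-7 clonotypes printed were all in frame.

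TRBV5-TRBJ2-3 was the exception. Its CDR3 of 41 bases was out of frame, yet it was the fifth largest TCRβ clonotype of the thymus with 77447 reads and the fourth largest of the spleen with 155690 reads. It made up 77.0% and 78.7% of the reads of TRBJ2-3. An out-of-frame join encodes no TCRβ chain.

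For TRBJ2-1 and TRBJ2-2, which had no clonotype among the 10 largest, the leading clonotypes were smaller and differed between the libraries. The largest of TRBJ2-1 used TRBV13-3 in the thymus, with 4190 reads there and 4 in the spleen, and TRBV5 in the spleen, with 2274 reads there and 2685 in the thymus. The largest of TRBJ2-2 used TRBV13-2 in the thymus (2652 reads, 297 in the spleen) and TRBV19 in the spleen (2196 reads, 65 in the thymus). In the spleen the largest of TRBJ2-7 used TRBV26 (5757 reads, 2615 in the thymus).

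The second question was how much of each J gene survived the join. Over all clonotypes, TRBJ2-4 was kept whole most often among the TRBJ2 genes and TRBJ2-1 least often. Over distinct D-J joints, described further on, TRBJ2-4 was whole in 46.2% in thymus and 36.5% in spleen. TRBJ2-4 was whole in 57.3% of thymus clonotypes (49.5% to 64.8%) and 57.4% of spleen clonotypes (50.5% to 63.9%). TRBJ2-1 was whole in 6.94% (4.25% to 11.1%) and 7.98% (5.17% to 12.1%).

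TRBJ2-2 came second with 40.6% whole in thymus (29.5% to 52.9%) and 39.0% in spleen (27.6% to 51.7%). TRBJ2-7 was whole in 16.6% (12.5% to 21.7%) and 19.1% (15.3% to 23.7%), and TRBJ2-5 in 13.2% (9.49% to 18.2%) and 13.8% (10.2% to 18.5%). The intervals of TRBJ2-5 and TRBJ2-7 overlapped in both libraries, so these neighbours did not differ beyond counting error. For these 5 genes the thymus and spleen shares differed by at most 2.51 points, and the interval of each difference included 0. The interval was widest for TRBJ2-2 (-15.3 to 18.4 points) and narrowest for TRBJ2-1 (-5.98 to 4.01 points).

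TRBJ2-3 was whole in 25.9% of thymus clonotypes (19.4% to 33.6%) and 18.5% of spleen clonotypes (14.4% to 23.6%), and the interval of the difference included 0 (-0.866 to 16.1 points). Without the clonotypes that held the recurrent stretch its shares were 34.95% (26.4% to 44.5%) and 23.3% (18.2% to 29.3%), a difference of 11.7 points (1.23 to 22.5). Without those that shared the end of its largest clonotype as well, the shares were 37.1% and 33.8%, and the interval of the difference included 0 (-8.58 to 15.5 points). No clonotype with that end kept J whole, so leaving it out raises the whole share by construction.

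The median number of bases lost was 4 in thymus and 3 in spleen for TRBJ2-1, 1 and 2 for TRBJ2-2, 2 and 1 for TRBJ2-3, 0 and 0 for TRBJ2-4, 3 and 2 for TRBJ2-5, and 4 and 4 for TRBJ2-7. The distributions had peaks at particular positions. In the thymus a loss of exactly 7 bases was seen in 25.5% of TRBJ2-1 clonotypes (55 clonotypes) and 29.1% of TRBJ2-7 clonotypes (72), and in the spleen in 15.1% (36) and 12.2% (41). Exactly 1 base was lost in 47.3% of TRBJ2-3 clonotypes of the spleen (130) and 21.7% of those of the thymus (31).

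**Figure D2:**
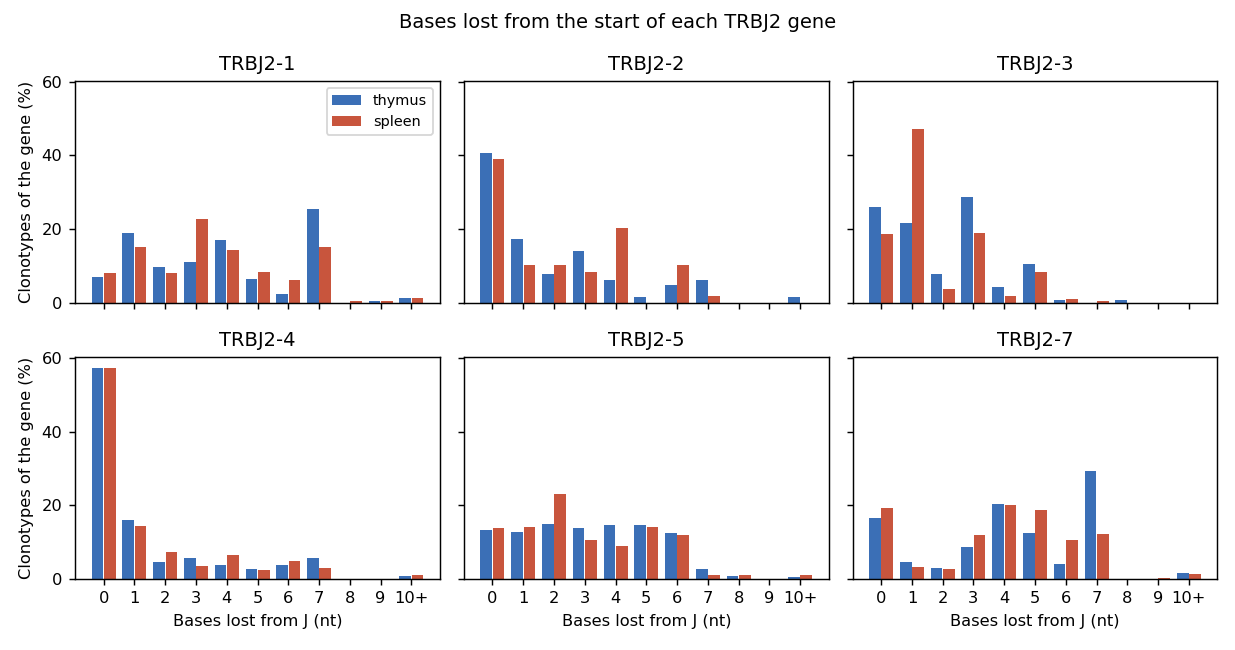
Each panel is 1 TRBJ2 gene. The x axis gives the bases lost from the start of J (nt, 0 meaning J whole with or without palindromic bases) and the y axis the share of that gene's clonotypes (%), in the thymus (blue) and spleen (red). TRBJ2-4 peaks at 0 in both libraries, TRBJ2-7 of the thymus at 7 bases (29.1%) and TRBJ2-3 of the spleen at 1 base (47.3%).

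Palindromic bases before a whole J were listed in 31.8% of TRBJ2-4 clonotypes of the thymus and 38.2% of those of the spleen. For TRBJ2-1 they were listed in 1.85% and 2.94%. With 1 palindromic base the TRBJ2-4 clonotypes numbered 33 in thymus and 58 in spleen. The shorter end of the large TRBJ2-4 clonotypes, described further on, keeps J whole after 1 such base. It was found in 16 thymus and 35 spleen TRBJ2-4 clonotypes that lacked the recurrent stretch. The TRBJ2-4 shares with palindromic bases and with whole J rest partly on it, and were not recounted without it. A base read as palindromic cannot be told apart from an inserted or D base of the same letter.

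Clonotypes out of frame, which encode no chain, were set beside the productive ones. Over the cluster J was whole in 24.1% of out-of-frame clonotypes of the thymus and 21.7% of those of the spleen, against 22.1% and 22.8% of productive ones. Among out-of-frame clonotypes, TRBJ2-4 was whole in 63.8% in thymus and 56.0% in spleen, against 54.1% and 57.3% of productive ones. TRBJ2-1 was whole in 9.23% and 12.3% of out-of-frame clonotypes and in 6.08% and 6.67% of productive ones. For TRBJ2-3 they were 16.98% and 9.82% of out-of-frame and 29.5% and 25% of productive clonotypes. Without the recurrent stretch and the shared end, TRBJ2-3 was whole in 36% and 30.6% of out-of-frame and 36.6% and 35.4% of productive clonotypes. No clonotype with the shared end kept J whole, so leaving it out raises these shares by construction. What the contrast rested on was not tested. Taking all clonotypes of the cluster, J was whole in 22.6% of clonotypes in thymus (20.2% to 25.2%) and 22.6% in spleen (20.4% to 24.8%), against 35.1% and 42.2% for TRBJ1. The TRBJ2 minus TRBJ1 difference was -12.4 points in the thymus (-17.1 to -7.85) and -19.7 points in the spleen (-23.6 to -15.7).

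Weighted by reads, TRBJ2-4 was whole in 98.3% of thymus and 99.2% of spleen reads, which are mainly those of the printed clonotypes. Without the 10 largest clonotypes these shares were 57.2% and 62.3%, near the shares by clonotypes. When J trimming was recounted as the longest exact match to the germline end, 92.4% of thymus and 93.8% of spleen TRBJ2 clonotypes gave the same number. By that count TRBJ2-4 was whole in 53.5% and 52.0%.

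The third question was which D-J joints the J genes had formed. A joint was read as the 8 bases before J followed by J, in clonotypes with an assigned D gene, at least 8 bases between V and J and no recurrent stretch. Since a D-J joint is made before V joins, clonotypes with different V genes and the same joint are listed as separate clonotypes although their J ends are the same. The 8 bases were counted back from J whatever the length of D. They can therefore include bases added between V and D, which splits a D-J joint into several. Joints that differ only further upstream are counted as the same. All counts over distinct joints carry this limit.

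TRBJ2 had 406 distinct joints in 714 such clonotypes of the thymus and 571 in 841 of the spleen, and 156 joints occurred in both. Joints found with at least 3 V genes numbered 28 in the thymus and held 254 clonotypes, 35.6% (32.1% to 39.2%). In the spleen they numbered 31 and held 183 clonotypes, 21.8% (19.1% to 24.7%). Of these joints 24 in each library were also found in the other library.

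A joint without inserted bases can recur from germline letters alone, so joints with at least 1 inserted base were counted apart. In the thymus 20 such joints held 193 clonotypes, 27.0% (23.9% to 30.4%). In the spleen 8 such joints held 61 clonotypes, 7.25% (5.69% to 9.21%). The same share for TRBJ1 was 27.1% in thymus and 24.4% in spleen.

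The joints held by the most clonotypes are printed with the 8 bases before J in lower case and the J bases in capitals.
TRBJ2-1, TRBD2, 7 bases lost: gggggcaaGCTGAGCAGTTCTTC
TRBJ2-1, TRBD2, 4 bases lost: ggcgcgggTATGCTGAGCAGTTCTTC
TRBJ2-7, TRBD2, 7 bases lost: ggggggacGAACAGTACTTC
TRBJ2-5, TRBD2, 1 base lost: ggggggagACCAAGACACCCAGTACTTT
TRBJ2-3, TRBD1, 1 base lost: gggacaggGTGCAGAAACGCTGTATTTT

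The first TRBJ2-1 joint was carried by 35 thymus clonotypes with 15 V genes, 26 of them productive, with 1 to 1539 reads each, and by 18 spleen clonotypes with 9 V genes. The other TRBJ2-1 joint was carried by 16 thymus clonotypes with 7 V genes and 6 spleen clonotypes with 3. That of TRBJ2-7 was carried by 22 thymus clonotypes with 8 V genes and 7 spleen clonotypes with 4, and that of TRBJ2-5 by 20 with 6 and 7 with 3. These 4 joints had 2 or 3 inserted bases (medians). They were printed for their high thymus counts, so their lower spleen counts do not show a difference between the libraries.

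The TRBJ2-3 joint was likewise printed for its high spleen count. It joined TRBD1 to TRBJ2-3 with no inserted base and was carried by 26 spleen clonotypes with 10 V genes, 13 of them productive, and by 2 thymus clonotypes with 2 V genes. Its last 24 bases are also the end of the large out-of-frame TRBV5-TRBJ2-3 clonotype. Counting every TRBJ2-3 clonotype with that end and without the recurrent stretch gave 68 of 219 in the spleen (31.1%, 25.3% to 37.5%), with 15 V genes, and 6 of 103 in the thymus (5.83%, 2.70% to 12.1%), with 5 V genes. The 67 spleen clonotypes with other V genes had 1 to 725 reads each, with a median of 112, and 34 of the 68 were productive.

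The ends of the other large clonotypes were set beside it. The bases past V of TRBV13-3-TRBJ2-4, with 1552980 reads in the spleen, were found in 4 spleen clonotypes with 3 V genes, that clonotype included, and in no other thymus clonotype. The end of TRBV19-TRBJ2-4, which TRBV13-3-TRBJ2-4 also holds, was found in 3 thymus clonotypes with 3 V genes and 10 spleen clonotypes with 9. The shorter end of TRBV13-1-TRBJ2-4, which the other TRBJ2-4 clonotypes printed also hold, was found in 16 with 12 and 35 with 14. Those of TRBV20-TRBJ2-5 and of TRBV13-2-TRBJ2-7 were found in 1 clonotype in each library. What set the sharing was not tested.

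**Figure D3:**
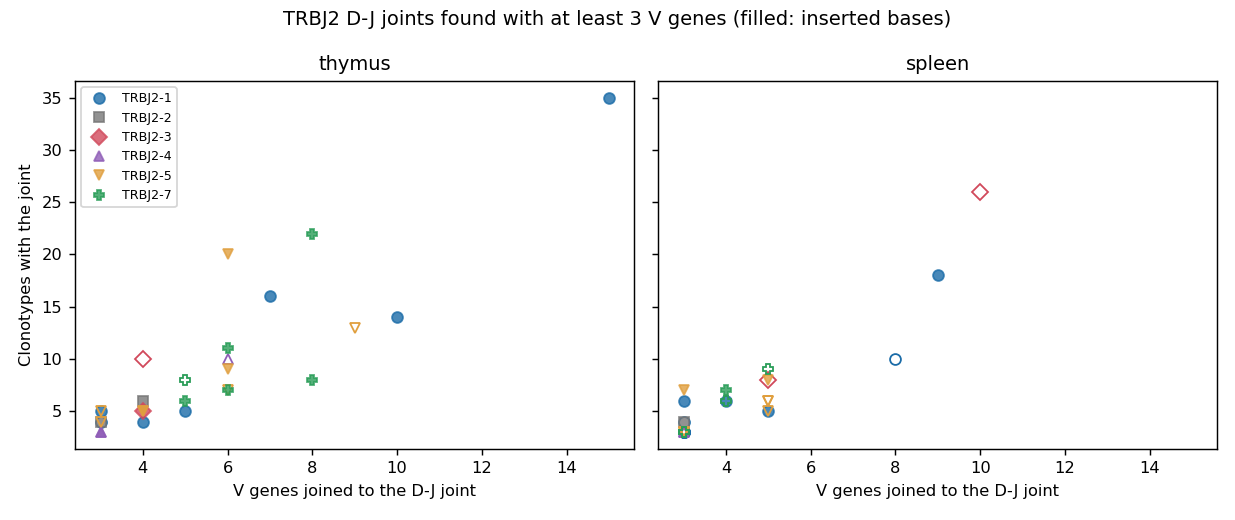
Each point is a TRBJ2 D-J joint found with at least 3 V genes in the thymus (left) or spleen (right) library. The x axis gives the number of V genes joined to it and the y axis the number of clonotypes that carry it, with color and shape for the J gene, filled points for joints with inserted bases and open points for joints without. The highest points are the TRBJ2-1 joint of the thymus with 35 clonotypes and 15 V genes and the TRBJ2-3 joint of the spleen with 26 clonotypes and 10 V genes.

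The trimming peaks were then recounted over distinct joints. Over clonotypes with a joint, a loss of 7 bases was seen in 29.3% of TRBJ2-1 and 39.5% of TRBJ2-7 clonotypes of the thymus, and in 14.8% (8.68% to 24.1%) and 19.3% (12.4% to 28.8%) of their distinct joints. In the spleen the loss of 1 base by TRBJ2-3 came down from 45.5% of clonotypes to 25.7% of joints (16.9% to 37.0%), beside 23.1% of joints in the thymus (13.7% to 36.1%). Whole J was recounted in the same way. Restricting TRBJ2-4 to clonotypes with a joint brought its whole share from 57.3% to 45.7% in the thymus and from 57.4% to 35.2% in the spleen, and counting each joint once then gave 46.2% and 36.5%. TRBJ2-3 was whole in 37.0% and 25.6% of clonotypes with a joint and in 46.2% and 35.7% of joints. Over joints TRBJ2-2 stood at 25% and 33.3%, and the intervals of TRBJ2-2, TRBJ2-3 and TRBJ2-4 overlapped in both libraries, so their order by clonotypes was not resolved over joints. TRBJ2-1 stood lowest with 9.88% and 9.09%.

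TRBD2, the D gene next to the cluster, was listed more often than TRBD1 for TRBJ2 joins. A D gene was assigned to 76.7% of TRBJ2 clonotypes in thymus and 73.6% in spleen, and TRBD2 made up 75.8% (72.7% to 78.6%) and 63.8% (60.8% to 66.7%) of those. For TRBJ1, which lies upstream of TRBD2, it made up 8.54% and 3.97%, which is the level at which the caller listed TRBD2 where the gene order allows no deletional join. Short germline stretches shared by the D genes (both open with GGGAC) limit each such call.

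The TRBD2 share of TRBJ2 was higher in the thymus by 11.96 points (7.74 to 16.1), and by 12.7 points (7.13 to 18.1) with each joint counted once. By gene it was 79.1% in thymus and 51.5% in spleen for TRBJ2-3 and 80.4% and 65.0% for TRBJ2-5. For TRBJ2-7 it was 74.9% and 61.6%. TRBJ2-4 with 79.8% and 78.4% and TRBJ2-1 with 72.5% and 70.1% differed by less than the interval of the difference (-9.20 to 11.6 and -6.46 to 11.2 points). TRBJ2-2 had the lowest shares, 60% (46.2% to 72.4%) and 45.8% (32.6% to 59.7%), and its difference also had an interval that included 0 (-5.42 to 32.3 points). The spleen interval of TRBJ2-2 included equal use of both D genes, and with each joint counted once TRBD2 made up 75% and 56.7% of its joints. With each joint counted once the TRBJ2-3 difference was 12.7 points with an interval that included 0 (-2.92 to 26.7), whereas those of TRBJ2-5 (18.4 points, 6.56 to 29.1) and TRBJ2-7 (17.2 points, 5.05 to 28.0) kept intervals above 0.

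Joints without inserted bases between D and J were more frequent in the spleen. They made up 36.1% of TRBJ2 clonotypes with a D gene in thymus and 53.5% in spleen, a difference of -17.4 points (-21.8 to -12.8). Over distinct joints the shares were 32.8% and 43.1%, and the difference was -10.3 points (-16.3 to -4.14). All 6 genes had the lower clonotype share in the thymus, from 22.8% against 47.5% for TRBJ2-1 to 42.3% against 49.3% for TRBJ2-4. The intervals of TRBJ2-2 (-30.1 to 7.39 points) and TRBJ2-4 (-19.3 to 5.76 points) included 0. Over distinct joints TRBJ2-2 differed by 2.38 points the other way (-21.0 to 25.6), and TRBJ2-3 was the only gene whose interval excluded 0 (-36.0 to -2.37). TRBJ1 stood at 54.4% and 56.0%.

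**Figure D4:**
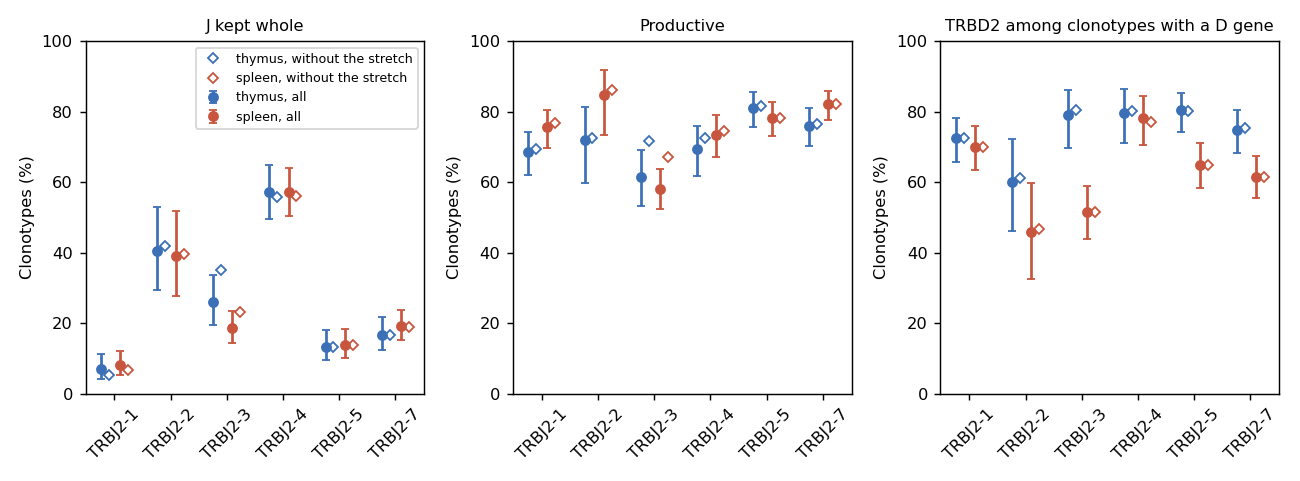
The 3 panels give, for each TRBJ2 gene, the share of clonotypes with J whole, the share that was productive and the share of clonotypes with an assigned D gene that listed TRBD2 (%, y axes from 0 to 100), in the thymus (blue) and spleen (red). Filled circles are all clonotypes with Wilson 95% intervals and open diamonds the values without clonotypes that hold the recurrent stretch. TRBJ2-4 stands highest for whole J, and the diamonds leave the circles mainly at TRBJ2-3, whose productive share goes from 61.5% to 71.8% in the thymus and from 58.2% to 67.1% in the spleen.

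Reading frame was compared next. TRBJ2 clonotypes were productive (no frameshift and no stop codon) in 72.5% in thymus (69.7% to 75.1%) and 74.3% in spleen (72.0% to 76.6%). TRBJ1 stood at 73.2% and 79.0%. The TRBJ2 minus TRBJ1 difference was -0.751 points in the thymus (-5.17 to 3.81) and -4.67 points in the spleen (-8.18 to -1.06), and without the recurrent stretch the spleen difference was -2.52 points with an interval that included 0 (-6.01 to 1.07).

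By gene, TRBJ2-5 had the highest productive share in the thymus, 81.2% (75.7% to 85.7%), with 78.4% in the spleen (73.0% to 82.9%). TRBJ2-2 had the highest in the spleen, 84.7% (73.5% to 91.8%), with 71.9% in the thymus (59.9% to 81.4%). TRBJ2-7 stood at 76.1% and 82.1%, TRBJ2-1 at 68.5% and 75.6%, and TRBJ2-4 at 69.4% and 73.5%.

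TRBJ2-3 had the lowest share in both libraries, 61.5% in thymus (53.4% to 69.1%) and 58.2% in spleen (52.3% to 63.9%). Without the recurrent stretch it was 71.8% (62.5% to 79.6%), within the range of the other genes, and 67.1% (60.7% to 73.0%), the lowest of the 6, with an interval that overlapped that of TRBJ2-4 (68.0% to 80.2%). Of the 68 spleen clonotypes with the shared end 34 were productive, and without them the spleen share was 74.8% (113 of 151, 67.4% to 81.1%), beside 73.2% in the thymus. Thymus and spleen productive shares differed for no gene by more than the interval of the difference. In-frame stop codons were few, 14 clonotypes of the thymus (1.32%) and 13 of the spleen (0.943%), so that most nonproductive TRBJ2 clonotypes were out of frame. By reads the productive share was 99.2% and 99.8% for TRBJ2-4, and 21.6% and 18.4% for TRBJ2-3, most of whose reads belong to the TRBV5-TRBJ2-3 clonotype. Without the 10 largest clonotypes TRBJ2-3 stood at 94.1% and 86.1% of reads.

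Productive CDR3s were shortest with TRBJ2-7, the gene that brings the fewest germline bases, and the other TRBJ2 genes lay within a few bases of each other. Leaving out the recurrent stretch and CDR3s over 75 bases, the mean length with TRBJ2-7 was 39.8 ± 4.95 bases (SD over clonotypes) in the thymus and 39.0 ± 4.71 in the spleen. With TRBJ2-2 it was 46.0 ± 5.33 and 43.8 ± 4.58. TRBJ2-1 had 44.1 ± 5.75 and 43.0 ± 5.41, TRBJ2-3 44.6 ± 5.57 and 42.6 ± 4.41, TRBJ2-4 44.5 ± 5.54 and 42.9 ± 4.36, and TRBJ2-5 42.8 ± 5.07 and 42.3 ± 4.80.

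All 6 means were lower in the spleen, although with every productive CDR3 kept TRBJ2-4 averaged 45.1 bases in thymus and 45.7 in spleen. Over the cluster the mean was 42.9 bases in thymus and 41.7 in spleen. TRBJ2 exceeded TRBJ1 by 3.01 bases in the thymus (2.41 to 3.61) and 1.02 bases in the spleen (0.566 to 1.48). CDR3s over 75 bases numbered 18 in thymus and 19 in spleen. All 18 and 16 of the 19 had 1 read, and 15 and 14 held the recurrent stretch.

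The last 5 residues of productive CDR3s are mainly encoded by J, and the most frequent ending of each gene was compared. It was the ending in 97.3% of TRBJ2-1 clonotypes of the thymus and 96.7% of those of the spleen, and for TRBJ2-3 in 96.6% and 96.9%. TRBJ2-2 kept it in 93.5% and 98.0%, TRBJ2-5 in 92.6% and 95.7%, and TRBJ2-4 in 91.7% and 92.7%. TRBJ2-7 was the varied one. Its germline ending, with tyrosine first of the 5 residues, was kept in 48.9% of thymus clonotypes (41.9% to 56.0%) and 55.3% of spleen clonotypes (49.4% to 61.0%). Endings with aspartate in that place followed with 22.3% and 19.6%, and endings with glycine with 12.8% and 8.73%. TRBJ2-7 brings 19 bases into CDR3, against 21 to 23 for the other genes. Its last 5 residues thus begin nearer to the trimmed start of J, and a smaller loss alters them. The contrast between the genes therefore depends in part on J length.

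V partners were spread widely. TRBJ2 clonotypes used 26 V genes in each library, and 127 of the 156 possible V-J pairs were seen in thymus and 133 in spleen. Over all clonotypes TRBV19 was the most frequent partner of the cluster with 11.03% of clonotypes in thymus (9.28% to 13.1%) and 13.3% in spleen (11.6% to 15.2%), beside 12.4% and 12.2% of TRBJ1 clonotypes. TRBV13-2 followed with 10.46% and 11.4%, and the intervals of both V genes overlapped. Among productive clonotypes they were level in the thymus with 93 each, and in the spleen TRBV13-2 had 146 and TRBV19 had 138.

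By gene, TRBV19 led TRBJ2-1 with 27 of 216 clonotypes in the thymus and 35 of 238 in the spleen. For TRBJ2-1 the next partners were TRBV13-2 (23) and TRBV4 (20) in the thymus, and TRBV13-2 and TRBV5 (20 each) in the spleen. TRBV13-2 led TRBJ2-2 with 7 of 64 and 9 of 59 and TRBJ2-4 with 21 of 157 and 29 of 204. TRBV19 was next for TRBJ2-4 with 18 and 26 clonotypes.

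TRBJ2-5 was led by TRBV5 in the thymus (31 of 234) and TRBV19 in the spleen (32 of 268, with 29 for TRBV5). TRBJ2-7 was led by TRBV19 in the thymus (37 of 247) and TRBV13-2 in the spleen (51 of 335, with 46 for TRBV19). Intervals of first and second partners overlapped in these cases, so the change of leader between libraries was not resolved. By reads the leading partners were those of the largest clonotypes, TRBV19 and TRBV13-3 for TRBJ2-4, TRBV20 for TRBJ2-5 and TRBV5 for TRBJ2-3.

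**Figure D5:**
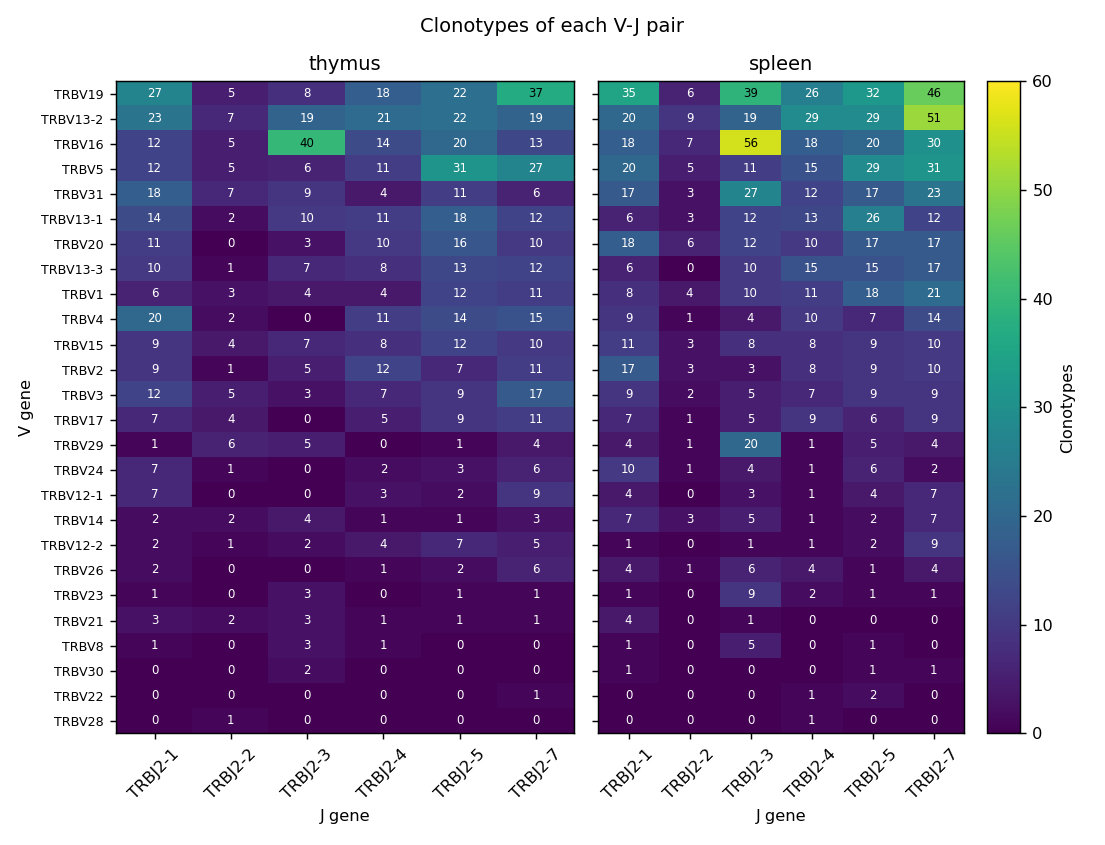
Each cell gives the number of clonotypes of a V-J pair, with TRBJ2 genes on the x axis, V genes on the y axis ordered by their TRBJ2 clonotypes in both libraries, and a color scale in clonotypes, for the thymus (left) and spleen (right). The highest cell in each library is TRBV16 with TRBJ2-3, with 40 clonotypes in thymus and 56 in spleen. It is followed by TRBV19 with TRBJ2-7 in the thymus (37) and TRBV13-2 with TRBJ2-7 in the spleen (51). Without the recurrent stretch TRBV16 with TRBJ2-3 has 10 and 22 clonotypes.

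TRBV16 led TRBJ2-3, with 40 of 143 clonotypes in the thymus and 56 of 275 in the spleen. Most of these held the recurrent stretch. It was found from the commonest run of 17 bases and extends to 28 bases, which are capitals here within the TRBJ2-3 CDR3 that had the most reads of them in each library.
TRBV16-TRBJ2-3, thymus, 5 reads: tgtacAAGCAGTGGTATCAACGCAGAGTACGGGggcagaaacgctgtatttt
TRBV16-TRBJ2-3, spleen, 7 reads: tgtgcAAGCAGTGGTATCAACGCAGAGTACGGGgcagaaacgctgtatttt
The run of 17 bases occurred in 0 of the 141767 annotated mouse transcripts on either strand. Clonotypes were counted by that run, and 156 of the 159 TCRβ clonotypes that had it held all 28 bases. The library kit adds an oligonucleotide to the 5′ end of cDNA by template switching. The sequence of that oligonucleotide is not in the files used here, and whether the stretch comes from it was not tested.

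The stretch was held by 61 TRBJ2 clonotypes of the thymus (5.75%, 4.50% to 7.32%) and 74 of the spleen (5.37%, 4.30% to 6.68%), and by 17 (2.94%) and 7 (0.812%) TRBJ1 clonotypes. TRBJ2-3 accounted for 40 and 56 of them, 28.0% and 20.4% of its clonotypes, and TRBJ2-5 and TRBJ2-7 for 1 each in each library. These TRBJ2 clonotypes had 86 reads in all in thymus and 117 in spleen, at most 5 and 7 per clonotype. Of the 40 and 56 TRBV16-TRBJ2-3 clonotypes 30 and 34 held it. Without it TRBJ2-3 was led by TRBV13-2 in the thymus (19 of 103) and TRBV19 in the spleen (39 of 219), as other TRBJ2 genes were.

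Sharing between the libraries was read from identical CDR3 nucleotide sequences. It covered 217 TRBJ2 clonotypes, 20.5% of the thymus (18.1% to 23.0%) and 15.7% of the spleen (13.9% to 17.8%), against 29.7% and 19.95% for TRBJ1. Shared clonotypes held 90.6% of TRBJ2 reads in thymus and 91.8% in spleen. These read shares rest largely on a few clonotypes. The TRBJ2 clonotypes among the 10 largest TCRβ clonotypes were all found in both libraries. They carried 56.4% of thymus and 74.4% of spleen TCRβ reads. Shared clonotypes numbered 56 for TRBJ2-7, 50 for TRBJ2-1, 38 for TRBJ2-3, 34 for TRBJ2-5, 28 for TRBJ2-4 and 11 for TRBJ2-2. In TRBJ2-3, 23 of the 38 held the recurrent stretch, and without it sharing covered 14.6% of its thymus clonotypes and 6.85% of its spleen clonotypes. By reads, sharing covered 97.3% and 98.7% of TRBJ2-4 but 89.0% of thymus and 29.4% of spleen reads of TRBJ2-5. TRBV19-TRBJ2-4 and TRBV13-3-TRBJ2-4, both found in each library, held most of those TRBJ2-4 reads. TRBV20-TRBJ2-5, also in both, held 82.3% of thymus and 17.6% of spleen reads of TRBJ2-5.

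The constant gene gave no contrast between the clusters. TRBC2, which lies downstream of the TRBJ2 genes, was listed first for 99.1% of TRBJ2 clonotypes in thymus and 99.4% in spleen. It was also listed first for 99.7% and 99.4% of TRBJ1 clonotypes, although TRBC1 lies directly downstream of TRBJ1, so these listings do not separate the constant genes.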

How the data were processed

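TCR transcripts of 15000 sorted iT cells per library, 1 library from thymus and 1 from spleen, were amplified by the authors with the SMARTer Mouse TCR a/b Profiling Kit, sequenced on a MiSeq and assembled into clonotypes with MiXCR. The authors deposited the read count of each clonotype without normalization, and a clonotype fraction was deposited beside it, taken over the TCRα and TCRβ clonotypes together. Genome build, read filters and molecular identifiers were not given in the sources used here. Total depth was 2700370 reads for thymus and 4585403 for spleen, and 127 of 1061 and 108 of 1379 TRBJ2 clonotypes had 1 read.

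Clonotypes were assigned to the first-listed J gene and kept whatever their reads or frame. Bases lost from J, palindromic bases and inserted bases were taken from the reference points that MiXCR lists. Germline sequences and coordinates came from GENCODE vM21 (GRCm38). A D-J joint was the 8 bases before J and J itself. Wilson and Newcombe 95% intervals were computed, and no p-value is given, since each tissue had 1 library. The reading of the listed trimming and the merging of errors were checked on simulated data. That check did not cover how MiXCR assigns trimming. All 6 TRBJ2 genes, the largest clonotype and 3 leading V genes of each, the leading V gene by reads, TRBJ2 clonotypes among the 10 largest, the D genes and the C genes were named, and TRBJ1 entered as a cluster. The joints, clonotype ends and stretch printed were chosen after their values were seen. The members and lists were chosen with earlier results of these data known.

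Alternatives were a minimum of 2 or 10 reads, productive or out-of-frame clonotypes only, leaving out the 10 largest clonotypes, merging clonotypes 1 base apart with at least 20 times the reads, equal TCRβ reads, tied J genes left out, weighting by reads and other rules of sharing. Leaving out the recurrent stretch, the shared TRBJ2-3 end or CDR3s over 75 bases, restricting to clonotypes with a D-J joint and counting each D-J joint once were added after seeing the data. Python 3.11.15, numpy 2.4.6, pandas 2.3.3, scipy 1.17.1 and matplotlib 3.10.9 were used.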

Additional observations from a re-analysis of the deposited data

How the results depend on the processing

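Of 154 values of the main comparisons recomputed under the alternatives, 124 kept their direction and stayed within the interval of the reported value or within 1.5 times a count. With at least 2 reads the TRBJ2 productive share was 75.7% in thymus and 77.5% in spleen, and TRBJ2 minus TRBJ1 was 2.31 and -2.65 points. With at least 10 reads these were 77.9%, 79.8%, 3.60 and -1.24 points, and in the spleen the TRBJ2 share of clonotypes was 59.5% and the mean CDR3 length 41.8 bases. Productive clonotypes alone gave TRBJ2 70.6% and 83.7% of TCRβ reads, and leaving out the 10 largest gave 57.6% and 55.3%. Out-of-frame CDR3s averaged 48.4 and 48.5 bases. At equal TCRβ reads the spleen productive difference was -3.35 points (-6.86 to 0.264). Weighted by reads, the productive share was 90.9% and 92.4%, the share with whole J 57.5% and 83.9%, and the mean CDR3 length 40.2 and 43.6 bases. Without the recurrent stretch the productive difference was 0.701 and -2.52 points, and in the spleen the productive share was 77.0% and the mean length 41.7 bases. Clonotypes with a D-J joint alone had whole J in 17.1% and 15.9%, and counting each joint once then gave 23.2% and 20.1%. The productive difference from TRBJ1 in the spleen was thus below 0 beyond its interval in the main count but not in 4 alternatives, and the cause was not tested. Of 264 values of single genes and V partners, TRBD2 shares and sharing, 24 moved beyond their interval, mostly of TRBJ2-3 and its TRBV16 partner. Sharing also moved with a minimum of 2 or 10 reads. The TRBD2 share moved in both libraries among clonotypes with a D-J joint, with each joint counted once and when weighted by reads. With each joint counted once it was 79.8% in thymus and 67.1% in spleen. Tied J genes had no effect since there were none. No paired analysis was possible because each tissue had 1 library. Clonotypes that share a D-J joint are not independent, so intervals over clonotypes are too narrow. The intervals of thymus minus spleen differences also treat the libraries as separate samples, although they share clonotypes and 156 TRBJ2 joints. Depth limits the smallest clonotypes, of which 210 in the thymus and 211 in the spleen had under 10 reads.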
